A study of Mus musculus with 4 samples.

Results

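Expression of 44 macrophage and leukocyte genes was examined in lens epithelium of mice, from eyes exposed to UVB and from covered eyes. The genes were chosen by symbol from a list of markers of white blood cells, with earlier results of these data known, and each is given by its own probe set, the one with the highest mean signal over the arrays. All 44 had such a probe set, of 19938 genes on the arrays with a probe set of their own. By known role, 9 mark leukocytes in general, 16 mark macrophages and monocytes, 3 encode C1q, 5 are Fc receptors or their adaptors, 6 belong to MHC class II or co-stimulation, 3 to the phagocyte oxidase and 2 to neutrophils. The 33 genes from macrophages to oxidase are called myeloid here. The mice were 8-week-old C57BL/6 males. Their right eyes received UVB at 30 mJ/cm2, and their left eyes, covered with aluminum foil, were the controls. Lens epithelia were isolated the day after. Each of 2 independent experiments gave 1 array per condition, so each group had 2 arrays. An animal experiment used 3 mice. How many of them contributed RNA to an array is not stated.

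The lens is a tissue without blood vessels, enclosed in a capsule, and its epithelium holds no leukocytes of its own in textbook descriptions. Macrophages live close by, in the iris and ciliary body, the retina, the vitreous and the vessel network of the developing lens. They carry receptors for growth factors and antibodies, engulf debris, secrete the complement protein C1q and present antigen on MHC class II molecules. Neutrophils are the leukocytes that usually enter an injured tissue first.

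Values are given as the normalized log2 signals of the authors, and a change is the log2 signal with UVB minus that of the control. Adding control and UVB signals gave the same sum in experiments 1 and 2, within 0.02, for 100% of the probe sets. The deposited values had thus been levelled between experiments, by a step that no source used here describes. A gene higher with UVB in both experiments therefore has both UVB arrays above both control arrays. Where groups are said below not to overlap, this adds no support of its own. Because of the levelling, limma without pairing takes the spread between arrays to be smaller than it was. Every SE given below is from that fit, unless pairing is named, and is too small likewise. The p of a fit that pairs the eyes of an experiment, with the experiment as a block, is called the paired p below, and it rests on 1 residual degree of freedom. An exact permutation test of a single gene, with 2 arrays per group, cannot give a p below 0.333. All p-values measure the spread between these arrays, and because whole tissue was measured, more cells of a type and more RNA per cell cannot be told apart. The table has no detection p, so the 95th percentile of 1210 olfactory and vomeronasal receptor probe sets, between 6.32 and 6.38 on the 4 arrays, served as a low-signal reference. Of the 44 genes, 24 were above it on all arrays and 16 on none. Of the lens genes, 10 of 10 were above it on all arrays, as were 13 of 13 photoreceptor genes given below. So were 7 of 8 pigment epithelium genes, 7 of 8 corneal and conjunctival genes and 2 of 8 endothelial genes.

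Most macrophage and leukocyte genes had a higher signal after UVB, by small amounts. Their median change was 0.14, with 0.14 in experiment 1 and 0.18 in experiment 2, against a median of −0.02 over all 28944 probe sets. Signal was higher in both experiments for 30 of the 44 (68.2%), against 24.0% of all probe sets. It was lower in both for 1, Spi1, against 37.4%, and the other 13 had opposite signs or no change in 1 experiment. The range ran from −0.08 for Cd163 to 1.18 for Srgn, and 17 genes (38.6%) had a mean change over 0.2, against 5.79% of all probe sets. Without Srgn the median was 0.13. With equal 75th percentiles on the arrays, 31 genes were higher in both experiments, against 30.2% of all probe sets, and 0 lower, against 29.5%. With arrays centred on their medians, 28 were higher, against 18.5%, and 5 lower, against 45.0%.

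At over 1.8-fold and an unadjusted p under 0.01, 1 of the 44 genes was higher, Srgn, and 0 were lower. By limma, 0.111% of all probe sets were higher and 0% lower. With pairing the same gene passed, against 0.0622%. At a Benjamini-Hochberg adjusted p under 0.05 over all probe sets, 13 of the 44 (29.5%) were higher, against 6.62%, and 0 were lower, against 11.0%. A gene is said to have passed below when it did so at this adjusted p. Its change was between 0.08 and 0.59 in the 12 besides Srgn. With any 1 of the 4 arrays left out, all 13 stayed higher. That outcome was fixed, because both UVB arrays lay above both control arrays in all 13. Whether they pass with 1 array left out cannot be judged, since a group is left with 1 array. With pairing, 0% of all probe sets reached an adjusted p of 0.05, and the lowest adjusted p was 0.357. At an unadjusted paired p under 0.05, 10 of the 44 (22.7%) were higher, against 5.69%, and 0 were lower, against 7.71%. These 10 were Srgn, Laptm5, Cd68, Csf1r, Adgre1, C1qa, C1qc, Fcgr2b, Fcgr3 and H2-Ab1. The other 3 that passed without pairing were Cx3cr1, Cd83 and S100a9.

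**Figure D1:**
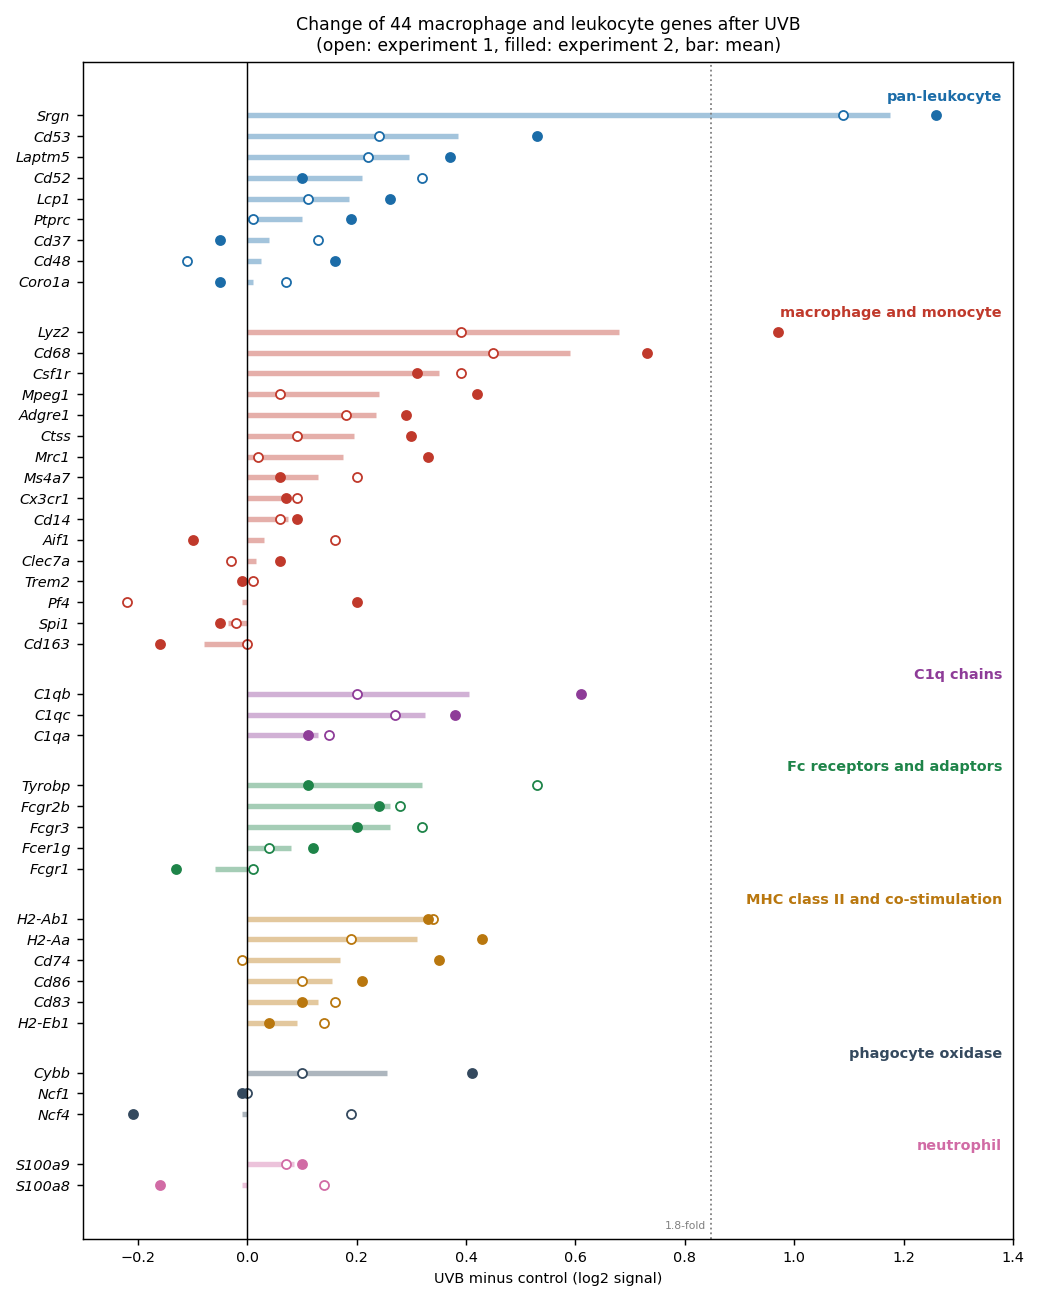
Change in log2 signal (UVB minus control, horizontal axis) of each of the 44 genes in experiment 1 (open circles) and experiment 2 (filled circles), with the mean as a bar and colours by role. Srgn lies beyond the dotted 1.8-fold line in both experiments, Lyz2 in experiment 2, and most other genes lie between 0 and 0.5.

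Promoters of the genes were searched for GAGGAA, the core letters bound by PU.1, the Spi1 product and a transcription factor needed to make macrophages. RefSeq windows of 300 bases (build GRCm38.p6, 250 before and 50 after the start) matched 32 of the 44 genes, with 39 windows. Those of Cd14, Spi1, Csf1r, Ncf4, Cd74, H2-Ab1, Cd52, Tyrobp, Adgre1, C1qa, Cd86 and Cd83 were not used here. On either strand (TTCCTC on the opposite one) GAGGAA was in 20 of 39 windows (51.3%), against 28.3% of all 32851 windows, and in 18 of the 32 genes, against 31.3% of all genes. A match is a run of letters and not a measured binding site. The stretches below run from 100 bases before the start to 30 after it, 5′ to 3′ in the direction of the gene, with GAGGAA or TTCCTC in capitals. They are shown for a complement gene, a tetraspanin, an Fc receptor and a lysosomal gene, whose signals are given below. These were picked among genes with a match that were higher in both experiments. Aif1, Cd37, Clec7a, Fcgr1, Pf4, S100a8 and Trem2 also hold a match and were not higher in both. Whether a match goes with the change was not tested.
C1qb (chr4:136886171-136886300, minus strand): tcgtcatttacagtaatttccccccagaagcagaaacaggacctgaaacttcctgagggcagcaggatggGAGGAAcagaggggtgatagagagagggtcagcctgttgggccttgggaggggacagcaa
Cd53 (chr3:106790120-106790249, minus strand): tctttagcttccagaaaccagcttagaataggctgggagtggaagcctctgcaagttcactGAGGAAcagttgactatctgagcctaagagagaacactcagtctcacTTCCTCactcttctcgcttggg
Fcgr3 (chr1:171059365-171059494, minus strand): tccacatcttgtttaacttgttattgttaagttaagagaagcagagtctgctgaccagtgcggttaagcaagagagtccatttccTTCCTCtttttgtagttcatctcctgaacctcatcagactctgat
Laptm5 (chr4:130913216-130913345, plus strand): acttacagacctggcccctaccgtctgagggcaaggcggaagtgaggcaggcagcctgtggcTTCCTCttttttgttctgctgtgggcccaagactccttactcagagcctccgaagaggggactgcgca

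Counted from the start at +1, the match begins at −30 in C1qb and at −39 and again at +9 in Cd53. It begins at −15 in Fcgr3, or at −6 from its other start, and at −38 in Laptm5. Srgn, the gene with the highest change of the 44, has 2 windows, and neither holds GAGGAA on either strand. Both of its stretches follow, all in lower case.
Srgn, first start (chr10:62507728-62507857, minus strand): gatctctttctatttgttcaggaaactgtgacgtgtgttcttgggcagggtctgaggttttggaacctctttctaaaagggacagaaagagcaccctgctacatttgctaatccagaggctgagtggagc
Srgn, other start (chr10:62527416-62527545, minus strand): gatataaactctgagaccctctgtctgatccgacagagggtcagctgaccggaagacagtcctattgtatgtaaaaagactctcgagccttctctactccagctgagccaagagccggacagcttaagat

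Among the 9 general leukocyte genes, the median change was 0.19, 6 were higher in both experiments and 2 passed. Srgn (probe set 10369615) encodes serglycin, the proteoglycan core that packs granules of leukocytes, mast cells and platelets and is also made by endothelial cells. Its control signals were 6.60 and 6.52 in experiments 1 and 2, and its UVB signals 7.69 and 7.78. Both UVB arrays were above both controls by more than 1 log2 unit. The mean change was 1.18 ± 0.05 (SE, n = 2 arrays per group), 2.26-fold, with an adjusted p of 0.0210 by limma and a paired p of 0.0020. Laptm5 (probe set 10508663), a lysosomal membrane protein of blood cells, had control signals of 7.27 and 7.20 and UVB signals of 7.49 and 7.57. The groups did not overlap, and the change of 0.30 ± 0.05 passed narrowly, with an adjusted p of 0.0499 by limma and a paired p of 0.0302.

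Ptprc encodes CD45, the phosphatase on the surface of all nucleated blood cells and the usual marker that defines them. Its control signals were 5.75 and 5.66 and its UVB signals 5.76 and 5.85, all under the low-signal reference. The change was 0.01 in experiment 1 and 0.19 in experiment 2, with an adjusted p of 0.278 by limma. Cd53, a tetraspanin of leukocytes, had control signals of 6.04 and 5.90 and UVB signals of 6.28 and 6.43. It was above the reference on 1 array, in the UVB group of experiment 2. Its change of 0.39 ± 0.09 had an adjusted p of 0.0840 by limma. The actin-bundling Lcp1 (0.19) and the surface protein gene Cd52 (0.21) had changes of like size without passing. The tetraspanin gene Cd37 (0.04), the adhesion receptor gene Cd48 (0.03) and the actin regulator Coro1a (0.01) had opposite signs in the experiments.

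Among the 16 macrophage and monocyte genes, 10 were higher in both experiments and 4 passed, with a median change of 0.11. Cd68 (probe set 10387536) encodes a glycoprotein of the lysosomes of macrophages and other phagocytes. Its signals were 7.23 and 7.09 in controls and 7.68 and 7.82 with UVB. Every UVB value exceeded every control value by at least 0.45. The change was 0.59 ± 0.08, 1.51-fold, with an adjusted p of 0.0436 by limma and a paired p of 0.0218. Csf1r (probe set 10456071), the receptor for the growth factor that keeps macrophages alive, had signals of 7.00 and 7.04 in controls and 7.39 and 7.35 with UVB. The change was 0.35 ± 0.03, with 0.39 and 0.31 in the 2 experiments, an adjusted p of 0.0224 by limma and a paired p of 0.0090.

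Adgre1 encodes F4/80, the surface protein by which mouse macrophages are most often recognised. Its signals were 5.87 and 5.82 in controls and 6.05 and 6.11 with UVB, below the reference on all arrays. The change of 0.24 ± 0.03 passed, with an adjusted p of 0.0442 by limma and a paired p of 0.0305. Cx3cr1, the fractalkine receptor of monocytes and microglia, was above the reference on all arrays, with 7.26 and 7.27 in controls and 7.35 and 7.34 with UVB. Its change of 0.08 ± 0.01 passed with an adjusted p of 0.0365 by limma, and its paired p was 0.0949. With quantile normalization the adjusted p was 0.0673. Its change was the smallest of the 13.

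Lyz2 (probe set 10372648) encodes lysozyme of macrophages and neutrophils and had the second highest mean change of the 44, but its experiments differed most. The signals were 7.59 with 7.98 in experiment 1, control before UVB, and 7.30 with 8.27 in experiment 2. Both UVB arrays lay above both controls, by 0.39 and 0.97 within the experiments. The mean change of 0.68 ± 0.17, 1.60-fold, had an adjusted p of 0.0994 by limma and a paired p of 0.0669. The closely related Lyz1 may add to this signal, since probe sequences were not used here.

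Of the other 11 macrophage genes, none passed. The mean change was 0.24 for Mpeg1, a pore-forming protein of phagocytes, 0.20 for Ctss, a lysosomal protease that prepares antigens, and 0.18 for Mrc1, the mannose receptor, each larger in experiment 2. Ms4a7 (0.13) and Cd14, the co-receptor for bacterial lipopolysaccharide (0.08), were also higher in both experiments. Values near 0 were found for Aif1, which encodes IBA1 (0.03), Clec7a, a receptor for fungal glucans (0.02), and Trem2, a lipid receptor of macrophages and microglia (0). Cd163, the scavenger receptor for haemoglobin bound to haptoglobin, had 0 in experiment 1 and −0.16 in experiment 2.

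Pf4 and Spi1 had mean changes near 0. Pf4 encodes platelet factor 4, a chemokine of platelets and of some tissue macrophages. Its signals were 6.65 and 6.44 in controls and 6.43 and 6.64 with UVB, so the experiments went opposite ways, by −0.22 and 0.20. Spi1, the gene of PU.1, had 6.18 and 6.20 in controls and 6.16 and 6.15 with UVB. All 4 of its values were under the reference and within 0.05 of each other, with an adjusted p of 0.162 by limma. With arrays centred on their medians its change was −0.06, with an adjusted p of 0.0475.

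All 3 chains of C1q, the protein that starts the classical complement cascade and that tissue macrophages secrete, were above the reference on all arrays and higher in both experiments. C1qa (probe set 10517517) had 6.99 and 7.01 in controls and 7.14 and 7.12 with UVB. C1qc (probe set 10517513) had 6.84 and 6.78 in controls and 7.11 and 7.16 with UVB. Neither gene's groups overlapped, and both passed. The change of C1qa was 0.13 ± 0.01, with an adjusted p of 0.0321 by limma and a paired p of 0.0436. The change of C1qc was 0.33 ± 0.03, with an adjusted p of 0.0312 by limma and a paired p of 0.0155. C1qb (probe set 10517508), whose promoter is printed above, had 7.56 and 7.36 in controls and 7.76 and 7.97 with UVB. Its mean change of 0.41 ± 0.12 was the highest of the chains but uneven, 0.20 and 0.61, and did not pass (adjusted p of 0.130 by limma, paired p of 0.0938).

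**Figure D2:**
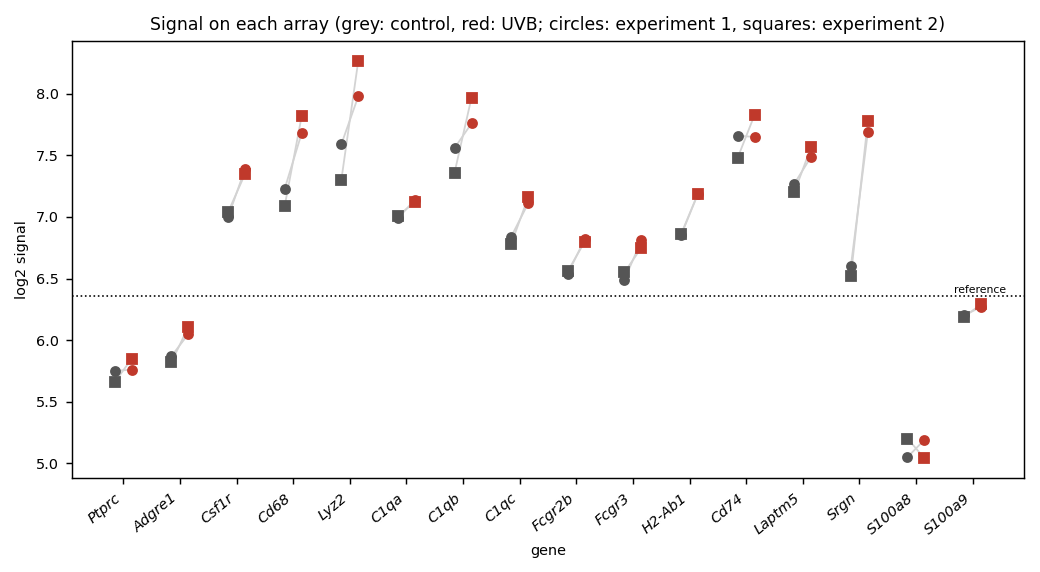
Log2 signal (vertical axis) of 16 of the genes on each array, control in grey and UVB in red, with circles for experiment 1, squares for experiment 2, lines joining the arrays of an experiment, and the mean low-signal reference as a dotted line. The UVB values of Srgn, Cd68, Lyz2 and C1qb lie above their controls, whereas Ptprc, Adgre1, S100a8 and S100a9 lie under the reference on all arrays, and signals of different probe sets are not to be ranked.

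Of the 5 Fc receptor and adaptor genes, 4 were higher in both experiments and 2 passed, with a median change of 0.26. Fcgr2b encodes the inhibitory receptor for antibody of the IgG class and Fcgr3 an activating one. Fcgr2b had 6.54 and 6.56 in controls and 6.82 and 6.80 with UVB. Fcgr3 had 6.49 and 6.55 in controls and 6.81 and 6.75 with UVB. In both genes the 2 UVB arrays lay above the 2 controls with a similar step in each experiment. The change was 0.26 in both, with an SE of 0.01 and an adjusted p of 0.0212 by limma for Fcgr2b and an SE of 0.04 and an adjusted p of 0.0432 for Fcgr3. The paired p was 0.0103 for Fcgr2b and 0.0279 for Fcgr3. The coding sequences of these receptors are closely alike, and how far the probes tell them apart was not tested.

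Tyrobp encodes DAP12, the adaptor through which Trem2 and other myeloid receptors signal. Its signals were 6.61 and 6.82 in controls and 7.14 and 6.93 with UVB. The step was 0.53 in experiment 1 and 0.11 in experiment 2, the reverse of the order in Lyz2 and C1qb, and the adjusted p was 0.186 by limma. Fcer1g, the signalling chain shared by activating Fc receptors, had a change of 0.08, and Fcgr1, the high-affinity IgG receptor, one of −0.06, neither passing.

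Among the 6 genes of MHC class II and co-stimulation, 5 were higher in both experiments and 2 passed, with a median change of 0.16. H2-Ab1 (probe set 10444291) encodes the beta chain of the class II molecule I-A, and its arrays agreed most closely of the genes that passed. It had 6.85 and 6.86 in controls and 7.19 on both UVB arrays. The change was 0.34 ± 0.01, with an adjusted p of 0.0210 by limma. With pairing the SE was 0.0275, and the paired p was 0.0048. H2-Aa, the alpha chain of the same molecule, had changes of 0.19 and 0.43 in the experiments. Its mean change of 0.31 had an adjusted p of 0.0881 by limma. H2-Eb1, the beta chain of I-E, had a change of 0.09 and an adjusted p of 0.156 by limma.

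Cd74, the invariant chain that guides class II molecules, had control signals of 7.66 and 7.48 and UVB signals of 7.65 and 7.83. Its groups overlapped, with −0.01 in experiment 1 and 0.35 in experiment 2, and the adjusted p was 0.339 by limma. Cd83, which stabilises class II molecules on antigen-presenting cells, had 5.92 and 5.95 in controls and 6.08 and 6.05 with UVB. All were under the reference. Its change of 0.13 ± 0.02 passed with an adjusted p of 0.0472 by limma, and its paired p was 0.0542. Cd86, a co-stimulatory ligand for T cells, had a change of 0.16 at signals under the reference and did not pass. Of 6 other measured class II pathway genes 0 passed in either direction, among them Ciita, the master activator of class II genes, with 0.08 in experiment 1 and −0.09 in experiment 2.

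Class II promoters carry a Y box, a CCAAT element bound by NF-Y beside the factors that recruit CIITA. CTGATTGG, a form of it chosen after the sequences were seen, was found on either strand (CCAATCAG on the opposite one) in 2 of the 39 windows (5.13%), against 4.10% of all windows. The 2 are of H2-Aa, at −51, and H2-Eb1, at −62, and do not overlap a GAGGAA match. As the letters were chosen after the sequences were seen, their place in class II genes is no result. Windows of H2-Ab1 and Cd74 were not used here. The stretches of H2-Aa and H2-Eb1 are printed with this run in capitals.
H2-Aa (chr17:34287794-34287923, minus strand): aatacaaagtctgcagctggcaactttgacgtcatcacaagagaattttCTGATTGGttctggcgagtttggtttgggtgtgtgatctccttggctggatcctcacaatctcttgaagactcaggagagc
H2-Eb1 (chr17:34305767-34305896, plus strand): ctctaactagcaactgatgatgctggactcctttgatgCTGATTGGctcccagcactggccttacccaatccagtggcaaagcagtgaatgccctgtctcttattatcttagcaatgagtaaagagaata

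Of the 3 phagocyte oxidase genes 1 was higher in both experiments, and of the 2 neutrophil genes 1. Cybb, the catalytic subunit of the oxidase, had a change of 0.26 without passing, and Ncf1, an organising subunit, one of −0.005. Ncf4, a regulatory subunit, had 5.86 and 6.06 in controls and 6.05 and 5.85 with UVB, opposite in the experiments and under the reference. S100a8 and S100a9 encode the partners of calprotectin, among the most abundant proteins of neutrophils. S100a8 had 5.05 and 5.20 in controls and 5.19 and 5.04 with UVB, with steps of 0.14 and −0.16. S100a9 had 6.20 and 6.19 in controls and 6.27 and 6.29 with UVB. Both genes were under the reference on all arrays, and the groups overlapped for S100a8 only. The change of S100a9, 0.09 ± 0.01, passed with an adjusted p of 0.0442 by limma, with a paired p of 0.0905. With quantile normalization its adjusted p was 0.104.

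Lists of other cell types, here and below, were counted in the same fit, where 6.62% of all probe sets passed higher and 11.0% lower. Of 12 other neutrophil genes, 0 passed higher and 2 lower, Mpo and Il1b, with a median of −0.07. Mpo was under the reference on all arrays, and Il1b was above it on 2. Cxcr2 had the largest change of the 12 (0.35), under the reference on all arrays, and did not pass. In 12 T and NK cell genes the median was −0.0025 and 1 passed in each direction. It was −0.07 in 5 B cell genes and −0.05 in 7 dendritic cell genes, with none passing, and −0.07 in 7 mast cell genes, of which 0 passed higher and 2 lower. Many of these genes were above the reference on no array: 9 of the 12 neutrophil and 7 of the 12 T and NK cell genes. So were 4 of the 5 B cell, 5 of the 7 dendritic cell and 6 of the 7 mast cell genes. At such signals a median near 0 says little about those cells. The 17 further macrophage and monocyte genes had a median of 0.09, with 9 higher and 7 lower in both experiments. Of these, 4 passed higher, the chemokine receptor gene Ccr2 (0.30), the scavenger receptor gene Msr1 (0.27), Cd33 (0.23) and Lyve1 (0.11), and 1 passed lower, Itgam, the integrin chain CD11b (−0.20). Ccr2, Msr1 and Itgam were under the reference on all arrays. The 6 microglia genes had a median of 0.01 with none passing. P2ry12, a microglial purine receptor, and Gpr34 were under the reference on all arrays. Olfml3 lay at 12.75 to 12.77 and Sall1 at 9.01 to 9.08, and which cells gave these high signals was not tested.

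**Figure D3:**
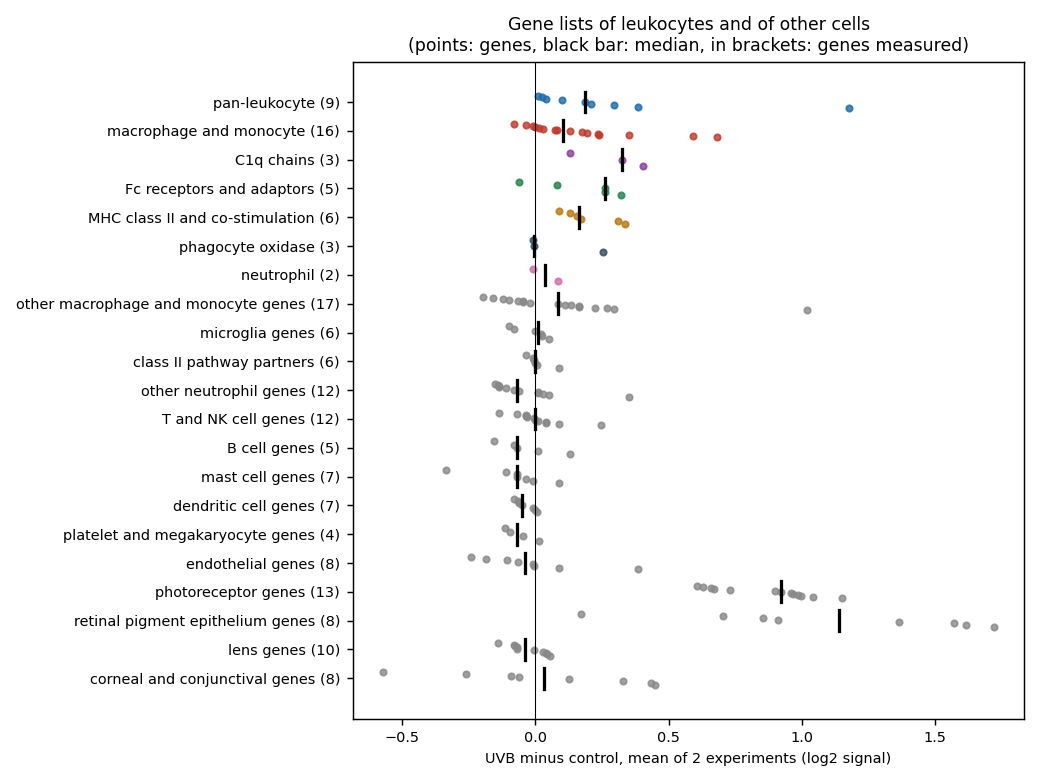
Mean change of log2 signal over both experiments (horizontal axis) for each gene of the 7 role groups (coloured) and of lists of other cells (grey), with the median of each list as a black bar. The medians of the C1q (0.33) and Fc receptor (0.26) groups lie right of 0, those of lymphocyte, mast cell and other neutrophil genes lie between −0.07 and 0, and those of photoreceptor (0.92) and pigment epithelium genes (1.14) lie farthest right.

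Markers of photoreceptors and of retinal pigment epithelium, and haemoglobin probe sets, moved with the group. All 13 measured photoreceptor genes were higher in both experiments, with a median change of 0.92, and all 8 retinal pigment epithelium genes were too, with 1.14. The mean log2 signal of the photoreceptor list was 8.63 and 8.44 in controls and 9.30 and 9.50 with UVB, and that of the pigment epithelium list 7.64 and 7.77 in controls and 8.89 and 8.75 with UVB. All 13 photoreceptor genes and 7 of 8 pigment epithelium genes were above the reference on every array. For the 44 genes the mean signal was 6.46 and 6.43 in controls and 6.62 and 6.65 with UVB. Haemoglobin probe sets, each shared by several globin genes, were higher by 0.84 to 1.07. The other measured red blood cell genes did not pass, Alas2, the first enzyme of haem synthesis in red cells, with a change of 0.25 and Slc4a1, their anion exchanger, with one of −0.04. Of 8 endothelial genes, 1 passed higher, Kdr (0.39), and 2 lower, with a median of −0.04. Of 4 platelet genes 0 passed higher and 1 lower, with a median of −0.07. Of 8 corneal and conjunctival genes 0 passed higher and 1 lower, with a median of 0.03. Their median was 0.16 in experiment 1 and −0.16 in experiment 2. In 7 of the 8 the change was higher in experiment 1, as in Krt5 (1.10 and −0.23) and Muc4 (−0.18 and −0.96). Of 10 lens genes 0 passed higher and 2 lower, with a median of −0.04. The part of retina, pigment epithelium, blood or vessels in the leukocyte signals was not tested.

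The experiments differed in where these changes were larger. In all 13 photoreceptor genes the change was larger in experiment 2, with a median of 1.12 against 0.67, while in 6 of 8 pigment epithelium genes it was larger in experiment 1, with 1.37 against 0.98. Of the 44 genes, 23 had the higher change in experiment 2 and 21 in experiment 1. By over 0.25 it was higher in experiment 2 for 10, among them Lyz2, Pf4 and C1qb, and in experiment 1 for 4, Tyrobp, Ncf4, S100a8 and Aif1. The median size of the difference between experiments was 0.15, against 0.09 over all probe sets. The haemoglobin probe sets had changes of 1.13 to 1.32 in experiment 1 and of 0.55 to 0.82 in experiment 2.

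**Figure D4:**
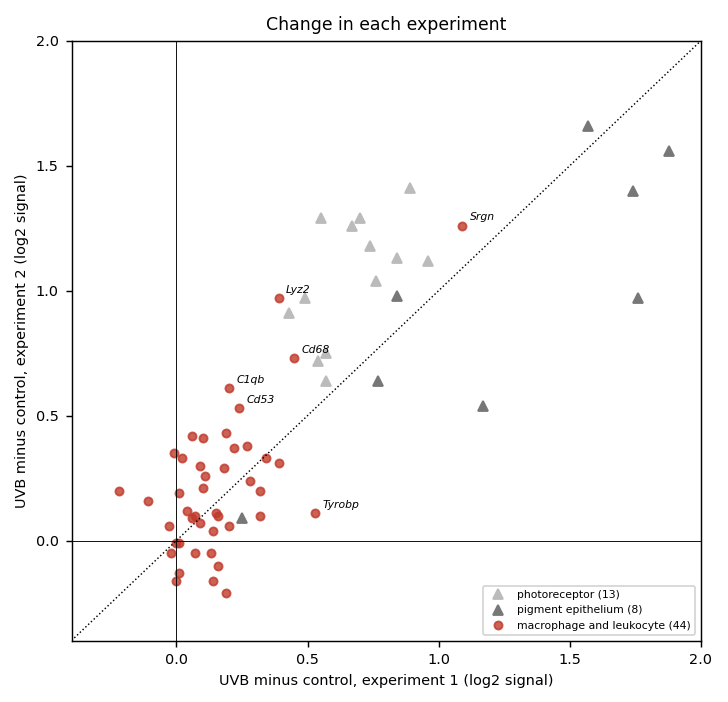
Change of log2 signal (UVB minus control) in experiment 1 (horizontal axis) and experiment 2 (vertical axis) for the 44 macrophage and leukocyte genes (red circles), 13 photoreceptor genes (light triangles) and 8 pigment epithelium genes (dark triangles), with equal change as a dotted line. Photoreceptor genes lie above the line and the 44 genes lie on both sides of it, with Lyz2 above and Tyrobp below.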

How the data were processed

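Lens epithelial RNA was measured on 4 Affymetrix arrays (100 ng of RNA each). The authors deposited log2 signals normalized with Affymetrix Expression Console, of unstated version and steps. Probe sets carry mouse symbols, although a human array type is named in the methods. Of 28944 probe sets, 21789 had 1 symbol, 1621 several and 5534 none. Array medians were 7.19 and 7.20 in controls and 7.22 and 7.21 with UVB. The number of arrays limits the precision.

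The fit of UVB against control used limma (version 3.58.1, R 4.3.3) over all probe sets, two-sided, without a block and with the experiment as a block. The thresholds of the methods, over 1.8-fold and an unadjusted p under 0.01, and an adjusted p under 0.05 were used. Pairing follows from the eyes of the same mice. Deviations of same-numbered arrays had a correlation of −0.998, as equal experiment means must give. The fit was tested on simulated data without levelling between experiments, so that test does not cover this feature of the deposited values. The members and lists were chosen with earlier results of these data known. Array values are given for genes that passed a threshold, the highest and lowest of the same sign in both experiments, those whose experiments differed most, and defining markers. Protein sequences were not used here.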

Additional observations from a re-analysis of the deposited data

How the results depend on the processing

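At over 1.8-fold and p under 0.01, 1 of the 44 genes was higher in all alternatives but a pair, 0 among probe sets above the median level, which leave Srgn out, and 2 at 1.5-fold. At an adjusted p under 0.05 by limma, 13 higher became 0 with the replicate block and 34 with a crossed pairing. The crossed pairing was chosen after the data were seen. Probe sets above the median level keep 8 of the 44 genes and 3 of the 13, and all 3 still passed. For that threshold, 0 lower became 1 with arrays centred on their medians, Spi1, and 5 with the crossed pairing. Equal sums in the experiments make the changes of both crossed pairs equal within rounding, so that fit has almost no residual spread. Its counts were fixed by the levelling and are no result about the genes. Other scalings, priors and thresholds gave 10 to 19 higher. Under at least 1 other scaling or prior the adjusted p of Adgre1, Laptm5, Cx3cr1, Fcgr3, Cd83 and S100a9 rose over 0.05 and lay between 0.0502 and 0.104 there. The median change of 0.14 was 0.13 to 0.15 without 1 array each and 0.23 among probe sets above the median level, where the general leukocyte genes are left with 1, Laptm5, at 0.30. Of 23 genes with array values, 20 kept their sign in every alternative. The exceptions are S100a8, with 0.0138 under quantile normalization, 0.01 under equal 75th percentiles and −0.085 to 0.065 without 1 array each, Pf4, with 0.01 under equal 75th percentiles and −0.115 to 0.095, and Ncf4, with 0.01 and −0.11 to 0.09. The causes were not tested. With 1 array left out, 1 residual degree of freedom remained and the lone array was assumed to vary like the other group. In a gene whose groups do not overlap, leaving out 1 array cannot change the sign. Of the 44 genes, 16 were above the low-signal reference on no array, among them 3 of the 13.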

Other observations

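Gpnmb, a glycoprotein of macrophages that engulf debris and also of pigment cells, lies outside the 44 genes and was the macrophage gene with the highest change among the 17 further ones. Its signals were 8.30 and 7.76 in controls and 8.78 and 9.32 with UVB, steps of 0.48 and 1.56. Its mean change of 1.02 ± 0.32 (SE, n = 2 arrays per group) did not pass, with an adjusted p of 0.138 by limma and a paired p of 0.0988. As in Lyz2, the step was larger in experiment 2.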
